A study of Rattus norvegicus with 22 samples.

Results

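The microRNAs (miRNAs) miR-23, miR-24 and miR-27 were followed in small RNA libraries from the hippocampus of adult rats. All names numbered exactly 23, 24 or 27 were taken, whatever their letter, copy number or arm, which gave 11 of the 468 distinct miRNA names. The rule goes by the name alone. The libraries came from 14-week-old male Long Evans rats, an outbred laboratory strain. CPF rats were injected under the skin with chlorpyrifos (CPF), an insecticide of the organophosphate class that inhibits acetylcholinesterase, at 10 mg/kg of body weight per day for 21 days. Control rats were injected with vehicle, peanut oil, over 21 days as well. Each group had 11 libraries, made from total RNA of the CA1 region per the labels' protocols. The labels name no individual animals, so the p-values measure only the spread between these libraries. They describe rats with and rats without fear conditioning, but not which library came from which.

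A miRNA gene is transcribed as a hairpin, from which a short mature RNA can be cut on either side. The product of the left side is called 5p and that of the right side 3p. Mature miRNAs guide Argonaute proteins to messenger RNAs that pair with the seed, bases 2 to 8, and lower the output of those messages. Genes of miR-23, miR-27 and miR-24 stand close together in vertebrate genomes in a pair of clusters, called a and b, and each cluster is generally transcribed as a unit. In other systems these miRNAs have been described in blood vessel growth (miR-23 and miR-27), in fat and muscle cell formation (miR-27) and in the cell cycle (miR-24).

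In the RefSeq table of the rat assembly GRCr8, Mir24-1, Mir27b and Mir23b lie on chromosome 17 and Mir24-2, Mir27a and Mir23a on chromosome 19. The chromosome 17 genes overlap the annotations of the protein-coding genes Aopep and Fancc, and Mir24-1 also overlaps Mir3074 on the opposite strand. No other annotated gene overlaps the chromosome 19 genes. No coordinates are printed, since the deposited values were made with another build, rn4. The mature 3p sequences, which hold nearly all reads of these names, are shown 5′ to 3′ with the seed in capitals because the a and b forms are told apart by a single base. They are from RefSeq, which held a sequence for 10 of the 11 names.
rno-miR-27b-3p: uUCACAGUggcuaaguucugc
rno-miR-27a-3p: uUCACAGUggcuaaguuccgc
rno-miR-23b-3p: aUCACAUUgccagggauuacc
rno-miR-23a-3p: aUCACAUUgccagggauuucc
rno-miR-24-3p: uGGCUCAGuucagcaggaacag
With positions counted from 1 at the 5′ end, miR-27b-3p and miR-27a-3p differ by U19C, and miR-23b-3p and miR-23a-3p by A19U. Both differences lie outside the seed, so each pair shares its seed. Between the miR-27 and miR-23 seeds the only difference is G7U. The mature miR-24-3p is the same from both genes, so its reads cannot be assigned to a chromosome. The remaining name, miR-24 with no arm, had no entry of its own.

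The 5p products do separate the miR-24 genes, and are shown for that reason, with the seed in capitals.
rno-miR-24-1-5p: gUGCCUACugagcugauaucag
rno-miR-24-2-5p: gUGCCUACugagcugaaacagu
They share the seed and differ by U17A, U19C, C20A, A21G and G22U. The Mir27b hairpin is shown because both of its arms were measured, with miR-27b-5p and then miR-27b-3p in capitals.
Mir27b: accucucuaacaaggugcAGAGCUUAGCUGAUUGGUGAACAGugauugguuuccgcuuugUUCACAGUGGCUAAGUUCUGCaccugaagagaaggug

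Values are the authors' reads per 1000000 (RPM). The reads behind them, recovered from the steps between low values, numbered 47844 to 94980 in CPF libraries and 53748 to 79350 in control libraries. A single read was thus worth 10.5 to 20.9 RPM. The floor was set at 3 reads, which is 31.6 to 62.7 RPM. The exact intervals of read counts and shares, and the floors, cover counting error only, since the reads carry no molecular identifiers. The limma intervals of fold changes rest on the spread between libraries. CPF replicate 1 and control replicate 7 stood apart from the other libraries in several of the 11 names, so the comparisons are also given without both, a setting chosen after the values were seen. Summed levels of a vessel-wall and endothelial list were lowest in the same libraries, at 221899 RPM in CPF replicate 1 and 222411 RPM in control replicate 7. That list held 9 names, of which 2 were at 0 in every CPF library, and its sums reached 313979 RPM in CPF and 284493 RPM in control libraries. Nearly all of these sums was a single name, miR-143-3p, with means of 267848 RPM in CPF and 259666 RPM in control libraries. They therefore say little of the other names on the list. A glial list of 16 names was highest in these libraries, at 160834 RPM in CPF replicate 1 (the next CPF library had 143879 RPM) and 175301 RPM in control replicate 7 (the next control library had 128585 RPM). Its lowest sums were 94180 RPM in CPF and 103921 RPM in control libraries, and 1 of its names was at 0 in every control library. Neuronal names, which mark the labelled tissue, summed to 58482 to 80584 RPM in CPF and 55408 to 80320 RPM in control libraries, lowest in CPF replicate 9 and control replicate 7. None of the 24 was at 0 throughout a group. Most of their sum was miR-9a-5p, with means of 50852 RPM in CPF and 52435 RPM in control libraries. The sum therefore says little of the other neuronal names. A choroid plexus and ependymal list summed to 635 to 8005 RPM in CPF libraries and 580 to 1097 RPM in control libraries. None of its 9 names was at 0 throughout a group, and CPF replicates 7, 8 and 9 held its highest sums. The part of any of these lists in the values that follow was not tested. In bulk tissue, fewer cells of a type and less RNA per cell cannot be told apart.

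Together the 11 names took 17.5 ± 1.38% of all RPM in CPF libraries and 17.3 ± 1.02% in control libraries (SD, n = 11 each). The range was 15.0 to 19.4% in CPF and 15.7 to 18.8% in control libraries. Nearly all of this was miR-27b-3p, which ranked second among all names in every one of the 22 libraries. The 10 other names held 1.90 ± 0.146% in CPF and 1.89 ± 0.217% in control libraries. Names that belong to the chromosome 17 genes alone took 15.7 ± 1.39% in CPF and 15.5 ± 1.11% in control libraries. Those of the chromosome 19 genes alone took 0.234 ± 0.0308% in CPF and 0.227 ± 0.0398% in control libraries. The names miR-24 and miR-24-3p, which could come from either, took 1.53 ± 0.125% in CPF and 1.54 ± 0.170% in control libraries.

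**Figure D1:**
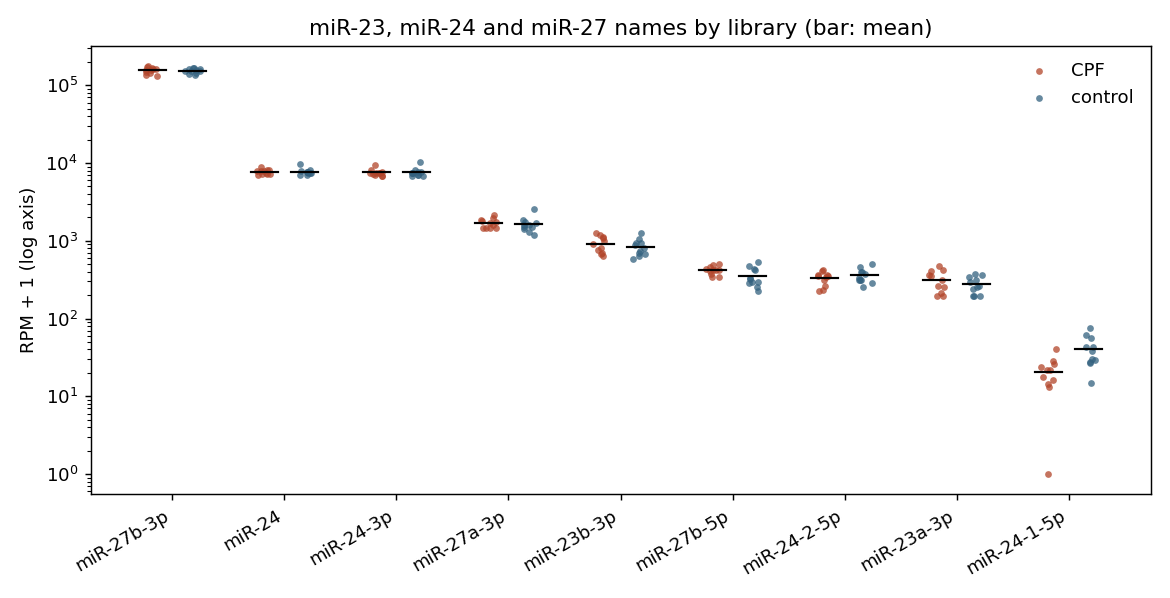
RPM + 1 on a log axis of the 9 names that passed the filter on low values, with a point per library and a bar at the mean, CPF (n = 11) left of control (n = 11) for each name. miR-27b-3p lay between 133379 and 175373 RPM in CPF libraries and between 134284 and 168862 RPM in control libraries, far above the other names, and the groups overlapped in all 9 names.

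For CPF against control, limma was fitted to log2(RPM + 1) of the 273 names that reached 10 RPM in 11 or more of the libraries, as 9 of the 11 names did. None of the 9 was called at an adjusted p under 0.05 (Benjamini-Hochberg over all 273), against a background of 0.733% of all tested names, which was 2 names. At an unadjusted p under 0.05 there were 2 of the 9, against 18 of 273 or 6.59%. The 9 names had a median log2 fold change of 0.02, equal to the 0.02 of all tested names, and 5 of the 9 lay above 0 against 145 of 273. No tested name had CPF and control libraries that did not overlap. On the recovered reads, edgeR called 0 of these names, not testing miR-24-1-5p, against 4 of 140 in all (2.86%), and DESeq2 called 0 against 5 of 418 (1.2%).

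Among the miR-27 products, miR-27b-3p had 133379 RPM in the lowest CPF library, a median of 158953 and 175373 RPM in the highest, against 134284, 152069 and 168862 RPM in control libraries. The groups overlapped over nearly their whole ranges, and the means were 156103 ± 13819 RPM in CPF and 153663 ± 11013 RPM in control libraries (SD, n = 11 each). The log2 fold change was 0.02 (SE 0.0558, 95% interval -0.09 to 0.14, limma adjusted p = 0.972). Its spread was among the smallest in the data, with a pooled within-group SD of 0.118 on the log2 scale. Only 3 of the 273 tested names had a smaller one, and the median was 0.557 over all tested names and 0.218 over the 73 with a mean of at least 500 RPM. Names with fewer reads carry more counting error, so these medians are not matched on depth. Among other highly abundant names the limma SE was 0.0489 for miR-30d-5p and 0.0577 for miR-143-3p. It was larger for miR-29a-3p (0.0836), miR-9a-5p (0.0875) and miR-338-3p (0.126). A small spread was thus not particular to miR-27b-3p.

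The a form, miR-27a-3p, which has the same seed, had 1458 RPM in the lowest CPF library, a median of 1669 and 2137 RPM in the highest, against 1172, 1579 and 2555 RPM in control libraries. The highest values of the groups were those of CPF replicate 1 and control replicate 7, and the control range enclosed the CPF range. The means were 1693 ± 231 RPM in CPF and 1632 ± 363 RPM in control libraries, a log2 fold change of 0.07 (SE 0.102, 95% interval -0.14 to 0.28, limma adjusted p = 0.954). The fold change was 0.14 without control replicate 7, 0.03 without CPF replicate 1 and 0.10 without both (limma adjusted p = 0.845). The b form was thus read 93.8 ± 15.2 times as often as the a form in CPF and 98.5 ± 22.9 times in control libraries. This ratio spans a single base difference, and how the authors' alignment treated a mismatch at that base is not given in the sources used here.

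From the other arm of Mir27b, miR-27b-5p had 337 RPM in the lowest CPF library, a median of 424 and 507 RPM in the highest, against 224, 318 and 540 RPM in control libraries. CPF libraries lay in the upper part of the control range and the groups overlapped. The means were 420 ± 54.7 RPM in CPF and 352 ± 99.8 RPM in control libraries, with a log2 fold change of 0.29 (SE 0.139, 95% interval 0.01 to 0.58). The unadjusted p was 0.0446, in 18th place among the 273, and the limma adjusted p was 0.677, so the difference did not pass the threshold. Reads of the 5p arm made up 0.269 ± 0.0294% of miR-27b reads in CPF libraries (341 against 126444 3p reads over the group) and 0.227 ± 0.0549% in control libraries (272 against 119551). The remaining miR-27 name, miR-27a-5p, did not pass the filter and had 3 reads in all over the CPF libraries and 3 over the control libraries.

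**Figure D2:**
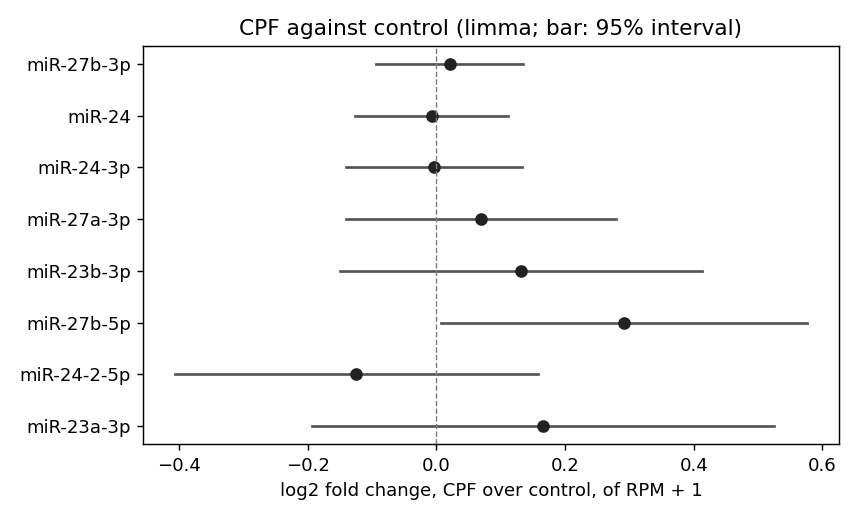
log2 fold change of RPM + 1, CPF over control, for the 8 names that average at least 3 reads per library, as points with 95% intervals from limma (n = 11 per group). The interval of miR-27b-5p, 0.01 to 0.58, is the only one that does not include 0, and no name passed after adjustment over 273.

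The miR-24 products came under 2 names of nearly equal level. The name miR-24 had 6945 RPM in the lowest CPF library, a median of 7821 and 8918 RPM in the highest, against 7011, 7610 and 9858 RPM in control libraries. The name miR-24-3p had 6714, 7483 and 9465 RPM in CPF and 6723, 7399 and 10175 RPM in control libraries. For both names the highest CPF value was that of replicate 1 and the highest control value that of replicate 7, and the other libraries of the groups overlapped. The means were 7733 ± 595 RPM in CPF and 7783 ± 763 RPM in control libraries for miR-24. Those of miR-24-3p were 7556 ± 739 RPM in CPF and 7594 ± 963 RPM in control libraries. The log2 fold changes were -0.0075 (SE 0.058, 95% interval -0.13 to 0.11, limma adjusted p = 0.974) for miR-24 and -0.0036 (SE 0.0666, 95% interval -0.14 to 0.13, limma adjusted p = 0.983) for miR-24-3p. Without CPF replicate 1 and control replicate 7 they were 0.0062 for miR-24 and 0.0064 for miR-24-3p. The spread of miR-24 was again small, with an SD of 0.121 that only 4 of the 273 names undercut. This ranking is not matched on depth either.

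Of the reads under either name, miR-24 held 50.5% in CPF libraries (6331 of 12537, exact 95% interval 49.6 to 51.4%) and 50.7% in control libraries (6067 of 11969, 49.8 to 51.6%). The share ran from 48.5 to 54.0% over the 22 libraries, and the counting interval held 50% in 21 of them. The exception was CPF replicate 6, at 54.0% (50.7 to 57.2%). The names were therefore nearly equal within every library at this depth, and how the authors divided reads between them is not given in the sources used here. Summing them changed no call.

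**Figure D3:**
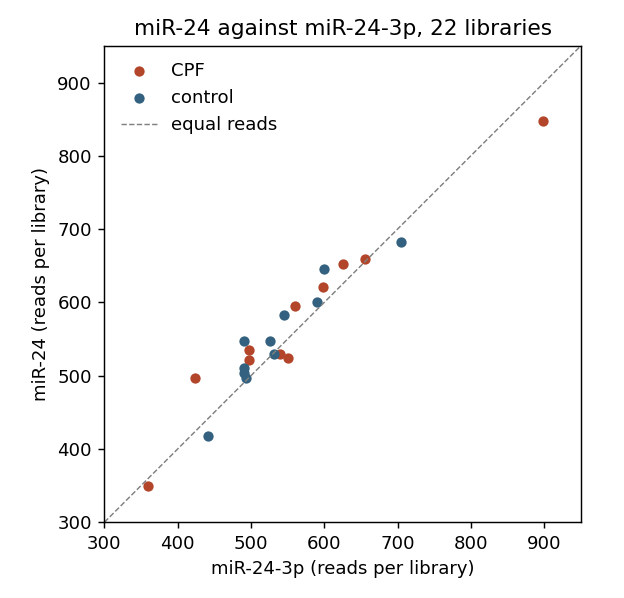
Reads named miR-24 against reads named miR-24-3p, with a point per library (11 CPF, 11 control) and a dashed line at equal reads. The points follow the line, and miR-24 holds 48.5 to 54.0% of the reads of both names in each library.

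The 5p arms of the miR-24 genes were read far less. The chromosome 19 product miR-24-2-5p had 227 RPM in the lowest CPF library, a median of 349 and 417 RPM in the highest, against 255, 330 and 496 RPM in control libraries. The ranges overlapped widely, and the means were 328 ± 64.3 RPM in CPF and 357 ± 74.4 RPM in control libraries, a log2 fold change of -0.12 (SE 0.138, 95% interval -0.41 to 0.16, limma adjusted p = 0.917). Without CPF replicates 7, 8 and 9 the fold change was 0.04 on the same scale. The chromosome 17 product miR-24-1-5p had 0 RPM in the lowest CPF library, a median of 20.9 and 39.8 RPM in the highest, against 13.7, 37.2 and 75.6 RPM in control libraries. These values are 16 reads over the CPF libraries (exact Poisson 95% interval 9.15 to 26.0), never more than 3 in a library, and 31 over the control libraries (21.1 to 44.0), never more than 6. The groups overlapped. Since both average under 3 reads per library no fold is given, and the unadjusted p of 0.0254 became 0.533 in limma after adjustment. Of the 5p reads of both genes, miR-24-2-5p held 94.4% in CPF libraries (270 of 286, exact 95% interval 91.1 to 96.8%) and 90.0% in control libraries (279 of 310, 86.1 to 93.1%). Both 5p names together were 2.24 ± 0.504% of the miR-24 reads in CPF and 2.52 ± 0.374% in control libraries. The overlapping gene on the opposite strand, Mir3074, was listed with 1 read over the CPF libraries and 0 over the control libraries. Whether the authors counted by strand is not given in the sources used here.

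Of the 3p products, those of miR-23 were the lowest of each cluster. For miR-23b-3p the lowest CPF library had 635 RPM, the median 916 and the highest 1272 RPM, against 577, 809 and 1241 RPM in control libraries. For miR-23a-3p these were 195, 316 and 474 RPM in CPF and 192, 260 and 378 RPM in control libraries. The groups overlapped over most of the range for both names, with the highest CPF library above the highest control library. miR-23b-3p averaged 920 ± 223 RPM in CPF and 837 ± 197 RPM in control libraries, a log2 fold change of 0.13 (SE 0.137, 95% interval -0.15 to 0.41, limma adjusted p = 0.911). miR-23a-3p averaged 314 ± 97.2 RPM in CPF and 275 ± 67.6 RPM in control libraries, a log2 fold change of 0.17 (SE 0.175, 95% interval -0.19 to 0.52, limma adjusted p = 0.911). Without CPF replicate 1 and control replicate 7 the fold changes were 0.18 for miR-23b-3p and 0.10 for miR-23a-3p, and in the same setting 0.02 for miR-27b-3p, 0.31 for miR-27b-5p and -0.09 for miR-24-2-5p. The remaining miR-23 name, miR-23b-5p, had 1 read over the CPF libraries and 0 over the control libraries, beside 758 and 651 reads of the 3p arm.

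The products of a cluster were far from equal in number. On chromosome 17, miR-27b-3p was read 179 ± 42.7 times as often as miR-23b-3p in CPF libraries and 192 ± 40.9 times in control libraries. It was read 10.3 ± 1.12 times as often as miR-24 and miR-24-3p together in CPF and 10.1 ± 1.32 times in control libraries, although those reads may also come from chromosome 19. On chromosome 19, miR-27a-3p was read 5.75 ± 1.41 times as often as miR-23a-3p in CPF and 6.23 ± 1.90 times in control libraries. The b form led the a form for miR-23 as well, by 3.18 ± 1.25 times in CPF and 3.15 ± 0.835 times in control libraries. For the 5p arms of miR-24 the order was the other way round, with the chromosome 19 product ahead. Read numbers of different miRNAs also carry the differing yield of adaptor ligation, which was not measured here, so a ratio of reads is not a ratio of molecules.

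Such a ratio can still be compared between groups, since the library's scaling cancels in it. 5 log2 ratios were tested with a two-sided permutation test (100000 resamples, Benjamini-Hochberg over the 5). The log2 ratio of miR-23b-3p over miR-27b-3p was -7.44 ± 0.358 in CPF and -7.55 ± 0.347 in control libraries, a difference of 0.11 (permutation p = 0.459). That of miR-24-3p over miR-27b-3p was -4.37 ± 0.189 in CPF and -4.34 ± 0.229 in control libraries, a difference of -0.02 (permutation p = 0.759). CPF replicate 1 and control replicate 7 lay above all other libraries in this ratio, and without both the difference was -0.01. The log2 ratio of miR-23a-3p over miR-27a-3p was -2.48 ± 0.353 in CPF and -2.58 ± 0.426 in control libraries, a difference of 0.10 (permutation p = 0.564). Between chromosomes, miR-27a-3p over miR-27b-3p differed by 0.05 (-6.53 ± 0.245 in CPF and -6.58 ± 0.367 in control libraries, permutation p = 0.730) and miR-23a-3p over miR-23b-3p by 0.03 (-1.58 ± 0.529 in CPF and -1.61 ± 0.378 in control libraries, permutation p = 0.869). All 5 adjusted permutation p were 0.869, and every difference was smaller than the spread between libraries of a group. Without CPF replicate 1 and control replicate 7 the difference was 0.16 for miR-23b-3p over miR-27b-3p, -0.0059 for miR-23a-3p over miR-27a-3p, 0.08 for miR-27a-3p over miR-27b-3p and -0.08 for miR-23a-3p over miR-23b-3p (smallest adjusted permutation p = 0.939).

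**Figure D4:**
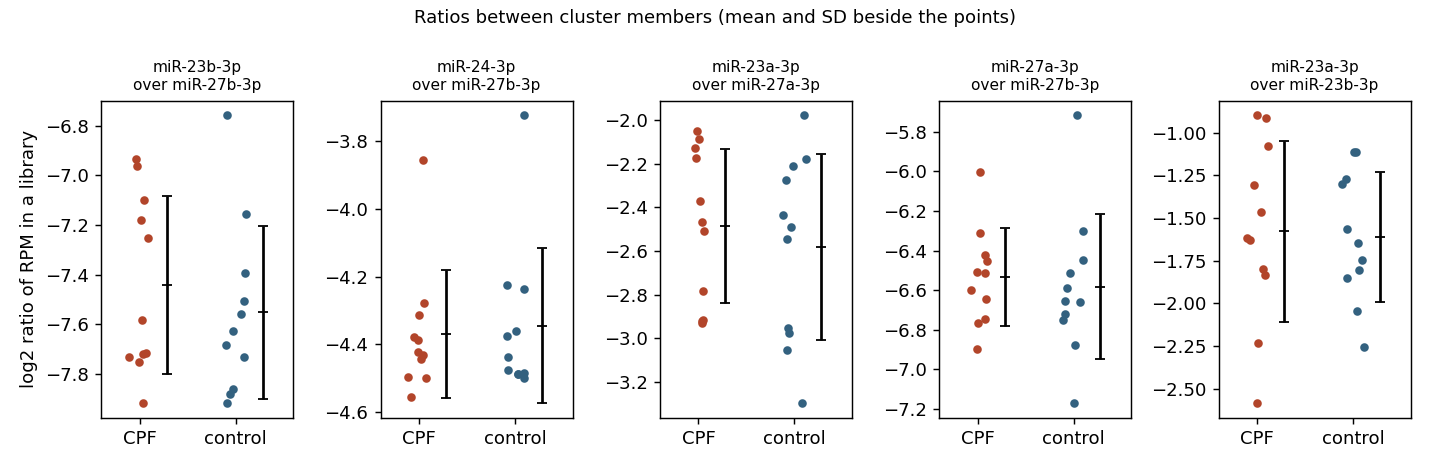
log2 ratio of RPM within a library for 5 pairs of names, with a point per library and the mean ± SD beside it, CPF (n = 11) left of control (n = 11), each panel with its own axis. The groups overlap in every panel, and CPF replicate 1 and control replicate 7 lie above the other libraries in miR-24-3p over miR-27b-3p.

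The same 5 pairs were correlated over the 22 libraries on the log2 scale. miR-23b-3p and miR-27b-3p, from neighbouring genes, had a Pearson r of 0.10 and a Spearman rho of 0.11 (adjusted permutation p = 0.652 and 0.616). Within CPF libraries r was 0.15 and within control libraries -0.01. miR-23a-3p and miR-27a-3p had an r of 0.40 and a rho of 0.54 (adjusted permutation p = 0.256 and 0.0533), with an r of 0.70 within CPF and 0.16 within control libraries. Without the 2 libraries farthest from the median of the pair's second name, here miR-27a-3p, this r was 0.66 (adjusted permutation p = 0.0087). The adjusted permutation p of r was 0.098 within CPF, 0.812 within control libraries and 0.123 without CPF replicate 1 and control replicate 7. Whether the pair passed thus depended on which libraries were used. miR-23a-3p and miR-23b-3p had an r of 0.30 and a rho of 0.36 (adjusted permutation p = 0.284 and 0.235), and an r of 0.17 within CPF and 0.41 within control libraries. Without the 2 farthest libraries r was 0.17 for miR-23b-3p with miR-27b-3p and 0.41 for miR-23a-3p with miR-23b-3p. Without CPF replicate 1 and control replicate 7 r was 0.38 for miR-23b-3p with miR-27b-3p, 0.45 for miR-23a-3p with miR-27a-3p and 0.31 for miR-23a-3p with miR-23b-3p.

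miR-24-3p and miR-27b-3p had an r of -0.21 and a rho of 0.14 (adjusted permutation p = 0.456 and 0.616), with an r of -0.03 within CPF and -0.39 within control libraries and -0.08 without the 2 farthest libraries. The negative sign came with CPF replicate 1 and control replicate 7, which had the highest miR-24-3p of their groups and miR-27b-3p of 136997 and 134284 RPM. Without both r was 0.52 (adjusted permutation p = 0.0956). miR-27a-3p and miR-27b-3p, which lie on different chromosomes, had an r of -0.36 and a rho of -0.22 (adjusted permutation p = 0.256 and 0.527). The r was -0.13 within CPF, -0.61 within control libraries and -0.28 without the 2 farthest libraries, and 0.01 without CPF replicate 1 and control replicate 7. No pair passed the threshold over all 22 libraries. All values are shares of the same library total, so they are not independent of each other.

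**Figure D5:**
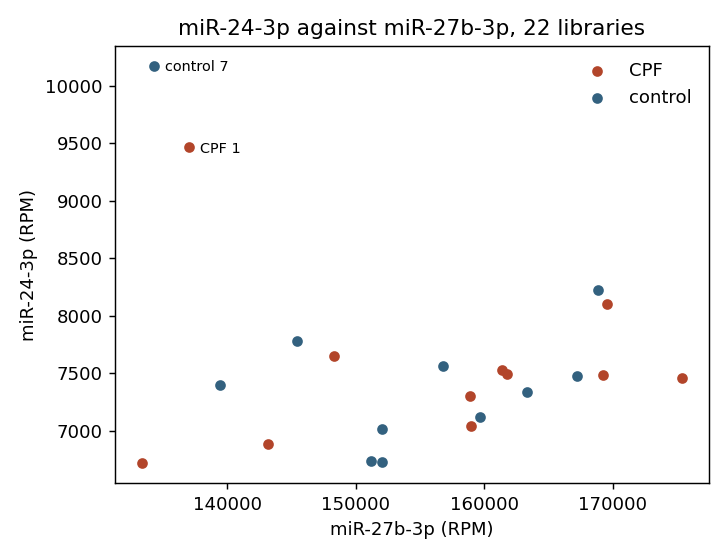
miR-24-3p against miR-27b-3p in RPM, with a point per library (11 CPF, 11 control). CPF replicate 1 and control replicate 7 lie apart at the upper left, with r = -0.21 over the 22 libraries and 0.52 without both.

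Across the 22 libraries, the 3 most abundant of the 11 names were compared with 67 other names of at least 500 RPM, as a description. The names most like miR-27b-3p were miR-351-5p (r = 0.56), miR-218a-5p (r = 0.43), from a neuron-enriched family, and miR-219-2-3p (r = 0.40), from an oligodendrocyte-enriched family. Those most like miR-24 were miR-26a-5p (r = 0.71), the neuronal miR-138-5p (r = 0.61) and miR-30e-5p (r = 0.60). Those most like miR-24-3p were the oligodendrocyte-rich miR-338-3p (r = 0.64), miR-30e-5p (r = 0.60) and miR-26a-5p (r = 0.56). miR-338 and miR-26a are on the glial list, and miR-219-2-3p is not. Most of the list's sum was miR-29a-3p (means of 53264 RPM in CPF and 54741 RPM in control libraries) and miR-338-3p (50330 and 55889 RPM). The list sum, which is thus not separate from miR-338-3p, was highest in the same CPF replicate 1 and control replicate 7 as both miR-24 names. Without these libraries r with miR-24-3p was 0.25 for miR-338-3p, -0.0087 for miR-30e-5p and 0.17 for miR-26a-5p. With miR-24 it was 0.495 for miR-26a-5p, 0.49 for miR-138-5p and 0.079 for miR-30e-5p. With miR-27b-3p it was 0.47 for miR-351-5p, 0.037 for miR-218a-5p and 0.38 for miR-219-2-3p. The likeness of both miR-24 names to miR-30e-5p and that of miR-27b-3p to miR-218a-5p thus rested on these libraries. That of miR-24-3p to miR-338-3p and miR-26a-5p was also much lower without them.

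The cell type lists set beside these values had few calls. In limma 0 of 6 tested vessel-wall and endothelial names passed (median log2 fold change 0.04), 0 of 13 glial names (-0.10) and 0 of 7 choroid plexus and ependymal names (1.61), beside 0.733% of all names. Of 20 neuronal names 2 passed, miR-132-3p and miR-212-5p, both higher in CPF, with a list median of 0.01. They were the only 2 names called among all 273. Fold changes above 0 were found for 5 of 6 vessel-wall and endothelial, 4 of 13 glial and 12 of 20 neuronal names. They were found for 7 of 7 choroid plexus and ependymal names, against 145 of 273 in all. That list summed to 2285, 4973 and 8005 RPM in CPF replicates 7, 8 and 9, and to 635 to 1232 RPM in the other CPF libraries. Some of its names averaged under 3 reads per library, such as miR-34b-3p (18.8 RPM in CPF and 3.18 RPM in control libraries). Folds of such names depend on the pseudocount. Muscle and red blood cell lists had 1 tested name each, and neither passed.

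The first digit of the library codes, 3 or 6 in CPF (6 and 5 libraries) and 1 or 4 in control libraries (5 and 6 libraries), is not explained by the labels, so each CPF digit was set against each control digit. For miR-27b-5p the log2 fold change was 0.35 for 3 against 1, 0.28 for 6 against 4, 0.06 for 3 against 4 and 0.57 for 6 against 1, with a smallest limma adjusted p of 0.235. None of the 9 names was called in any of the 4 comparisons, where 0.366, 0.366, 0 and 0.733% of all names were. No difference between the effects of the digits passed for any of 273 names in either matching, with 11 names (4.03%) and 24 names (8.79%) at an unadjusted p under 0.05.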

How the data were processed

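The deposited files hold RPM per miRNA name, per the file headers. Bowtie, cutadapt 1.2, CASAVA 1.8.2, Partek 6.6 and build rn4 were used in roles left unstated, per the submitters' processing notes. How reads matching several places or either strand were treated, and with which annotation, is not given in the sources used here, so the split between near-identical or overlapping names is uncertain. 13 names on 29 rows (none of the 11) were summed, and 36 rows that control replicate 2 lacks (448 of 484) were treated as missing. Reads were recovered from the RPM steps. Within 0.02 RPM, 91.5 to 97.5% of values under 20 reads were whole.

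limma 3.58.1 with a trend (R 4.3.3) was fitted to log2(RPM + 1), two-sided, Benjamini-Hochberg adjusted, threshold 0.05. Fold changes of low names on this scale depend on the pseudocount and on libraries at 0. The fit was tested on simulated data with changes planted only in less abundant names. Recovery of a change at the level of miR-27b-3p, miR-24 or miR-24-3p was thus not tested. Ratios and correlations used permutation tests in scipy 1.17.1. edgeR 4.0.16 and DESeq2 1.42.0 were run on rounded recovered reads. Other alternatives were pseudocounts of 5 and 14, no filter, a minimum of 50 RPM, median-ratio scaling, unsummed rows, summed miR-24 names, a replicate block, code digits and libraries left out. All 11 names were described. Names like the 3 most abundant were the 3 tested names of highest r with at least 500 RPM. The names and lists were chosen with earlier results of these data known.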

Additional observations from a re-analysis of the deposited data

How the results depend on the processing

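None of these names was called under any alternative that tested it (miR-24-1-5p had no value with edgeR or the minimum of 50 RPM). Over all names, 2 were called, against 4 with edgeR, 5 with DESeq2, 4 without CPF replicate 1 and control replicate 7 together (chosen after seeing the data), 1 for digit 3 against 1, 1 for 6 against 4 and 0 for 3 against 4 (18 at an unadjusted p under 0.05), and 2 to 3 with a library left out. The replicate block gave 2, and replicate numbers, over 0.1 in correlation in 2 of 11 pairs, did not pair the libraries.

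Changes of sign were all of values that did not pass, and their cause was not tested. For digit 3 against 1 the log2 fold change was -0.10 for miR-23a-3p, -0.029 for miR-23b-3p, 0.068 for miR-24, 0.032 for miR-24-3p, 0.12 for miR-24-2-5p and -0.046 for miR-27b-3p. It was 0.0042 for miR-24-3p with 6 against 1 and -0.014 for miR-27a-3p with 3 against 4. edgeR gave 0.018 for miR-24 and 0.021 for miR-24-3p. Without CPF replicate 1 and control replicate 7 together they were 0.0062 for miR-24 and 0.0064 for miR-24-3p. Without CPF replicates 7, 8 and 9, miR-24-2-5p was at 0.037 and miR-27b-3p at -0.017. With a library left out, miR-24 ran from -0.028 to 0.027 and miR-24-3p from -0.037 to 0.039. Without changing sign, miR-27a-3p ran from 0.024 (without control replicate 3) to 0.14 (without control replicate 7), miR-27b-3p from 0.0018 (without control replicate 7) to 0.043 (without CPF replicate 3), miR-23a-3p from 0.10 (without CPF replicate 1) to 0.23 (without CPF replicate 2), miR-23b-3p from 0.081 (without CPF replicate 10) to 0.19 (without control replicate 7), miR-24-2-5p from -0.17 (without control replicate 11) to -0.074 (without CPF replicate 7) and miR-27b-5p from 0.23 to 0.36.

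The difference in log2 ratio, CPF minus control, turned for miR-24-3p over miR-27b-3p without CPF replicates 7, 8 and 9 (0.00068) and for 3 against 1 (0.078). For miR-23a-3p over miR-27a-3p it was -0.0059 without CPF replicate 1 and control replicate 7 and -0.21 for 3 against 1. For miR-27a-3p over miR-27b-3p it was -0.038 for 6 against 4. For miR-23a-3p over miR-23b-3p it was -0.037, -0.080 and -0.074 without CPF replicates 7, 8 and 9, without CPF replicate 1 and control replicate 7, and for 3 against 1. With a library left out, the ratio over miR-27b-3p ran from 0.06 to 0.19 for miR-23b-3p, -0.076 to 0.038 for miR-24-3p and -0.011 to 0.13 for miR-27a-3p. Those of miR-23a-3p ran from 0.03 to 0.16 over miR-27a-3p and from -0.034 to 0.13 over miR-23b-3p. Of the correlations, r was -0.0070 within control libraries for miR-23b-3p with miR-27b-3p, and 0.66 without the 2 farthest libraries for miR-23a-3p with miR-27a-3p. Without CPF replicate 1 and control replicate 7 it was 0.52 for miR-24-3p and 0.0082 for miR-27a-3p, each with miR-27b-3p. Depth limits the 5p names other than miR-27b-5p and miR-24-2-5p, at under 3 reads per library.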
